A study of Homo sapiens with 24 samples.

Results

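LUHMES aggregates that had received 100 nM rotenone for 24 h were compared with aggregates that had received 50 nM for 24 h, after wash-out of the compound and 7 days of recovery. The comparison asks whether the dose left a difference in gene expression on day 15. It was defined by the sample titles, and it used 6 of the 24 arrays of the experiment, 3 for each dose. Genes entered the test if a probe was well above background on all 3 arrays of at least 1 of the doses, which held for 14377 of the 21743 genes with a RefSeq symbol on the array. The other 18 arrays, among them 3 DMSO arrays of the same day, served to estimate the spread and as context.

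LUHMES is a conditionally immortalized human mesencephalic cell line, in which tetracycline turns off a MYC transgene so that the cells leave the cell cycle and become dopaminergic neurons. All groups were grown as 3D aggregates on a shaker with cAMP, GDNF and tetracycline in the medium. Exposure began on day 7 in every group, and the 6 arrays compared were of day 15. The other groups were DMSO and 50 nM for 12 h on day 15, and, on day 8, right after exposure, DMSO, 50 nM after 12 h or 24 h of exposure, and 100 nM after 24 h. Control aggregates received DMSO in the amount that 100 nM rotenone brings with it, whereas the amount of DMSO in the 50 nM cultures is not given in the sources used here. The labels do not say whether the 3 samples of a group came from separate differentiations, so that p values measure the spread between these samples, which may be technical.

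Rotenone is a lipophilic pesticide that blocks complex I, the first proton pump of the mitochondrial respiratory chain. Inhibition of complex I lowers ATP production by oxidative phosphorylation, shifts cells towards glycolysis and raises the formation of reactive oxygen species. Dopaminergic neurons are known to be sensitive to it, and the compound is used to model features of Parkinson's disease.

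Most genes had nearly the same signal after both doses. The median difference between 100 nM and 50 nM was -0.03 on the log2 scale over all genes tested, and it was -0.01, 0.00 and -0.09 on slides 1, 2 and 3. The 95% interval of the difference lay within a 1.5-fold change in either direction for 11178 genes (77.7%) and within a 2-fold change for 13589 genes (94.5%). The median standard error (SE) was 0.12 and the median width of the interval to either side was 0.26. For these genes, a lasting dose difference larger than the stated fold lies outside the interval. Smaller differences were resolved for some genes only, with 3 arrays per dose.

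Pan-neuronal genes showed no call. All 18 listed genes were measured, with a median difference of 0.00, and 1 had an unadjusted p under 0.05. This was MAP2, a microtubule-associated protein of dendrites, at 13.93, 14.50 and 14.32 with 100 nM and at 13.84, 14.09 and 14.13 with 50 nM (normalized log2 signal of replicates 1 to 3, as in all such lists below). The groups overlapped, with a difference of 0.23 (SE 0.09, limma adjusted p = 0.46). Of 19 dopaminergic genes, 14 were tested, with a median difference of -0.05. At an unadjusted limma p under 0.05, 2 of the 14 were higher and 2 lower, where 1.68% and 6.5% of all genes were. At an adjusted p under 0.05 the count was 0. TH, the rate-limiting enzyme of dopamine synthesis, SLC6A3, the dopamine transporter, and the transcription factors NR4A2, PITX3 and EN1 were measured on all 6 arrays, whereas SLC18A2, the vesicular monoamine transporter, and the floor plate factors FOXA2 and LMX1A were not well above background on all 3 arrays of either dose. TH was at 6.75, 6.39 and 7.22 with 100 nM and at 7.44, 6.91 and 7.37 with 50 nM, overlapping groups with a difference of -0.46 (SE 0.24, adjusted p = 0.64). Its probes differed in size, at -0.82 and -0.09. NR4A2 was at 7.93, 8.12 and 7.77 against 7.51, 7.59 and 7.36. Its groups did not overlap, and the difference of 0.45 (SE 0.15) had an adjusted p of 0.40.

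Genes known from skeletal muscle were also measured in these aggregates, and bulk RNA does not show which cells expressed them. Of 19 listed skeletal muscle genes, 17 were measured, among them MYOD1 and MYOG, which direct myogenic differentiation, DES, the muscle intermediate filament, and myosin and troponin genes. On 50 nM replicate 1, their median log2 signal was 6.85, against 8.14 to 9.39 on the other 11 arrays of day 15 and 6.92 to 8.23 on the 12 arrays of day 8. On this array 16 of the 17 genes had their lowest signal of day 15, and 13 lay more than 1 log2 unit below the next array. MYH3, embryonic myosin heavy chain, which is named after its values were seen, was at 10.79 there, and at 13.61 and 14.03 on the other 50 nM arrays. With 100 nM it was at 13.83, 13.53 and 13.79. In bulk RNA, fewer cells of a type and less RNA per cell cannot be told apart.

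**Figure D1:**
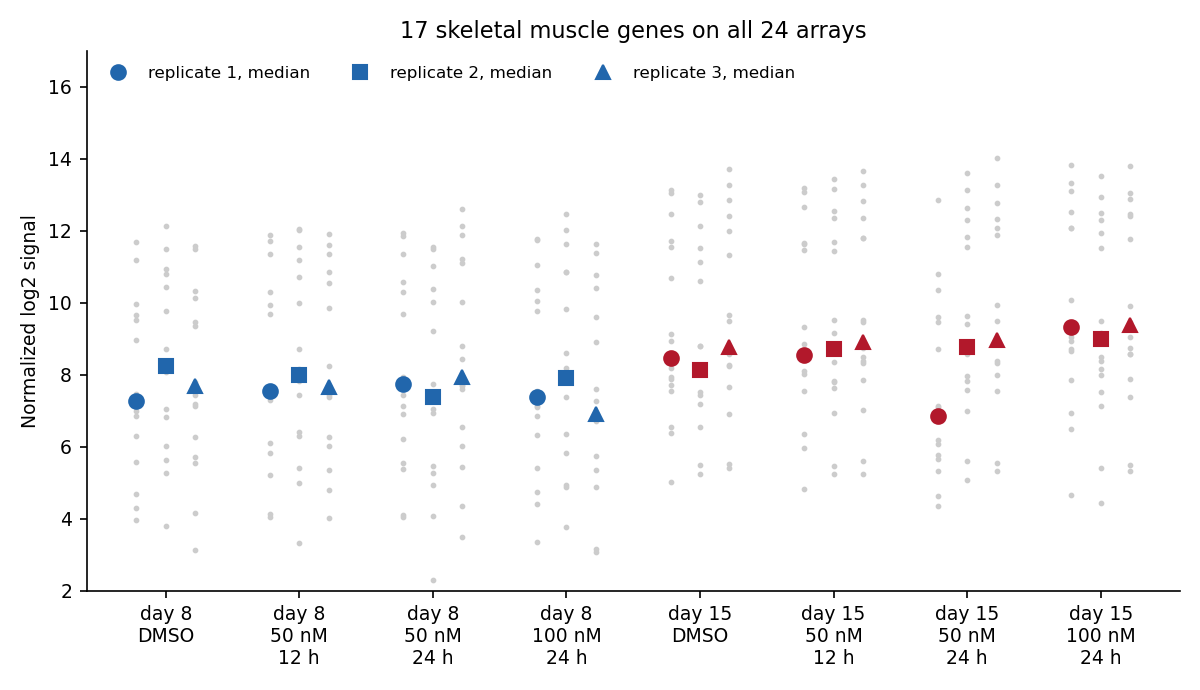
Normalized log2 signal of 17 skeletal muscle genes (gray points) and their median (colored symbols, blue for day 8 and red for day 15) on each of the 24 arrays, grouped by day, dose and exposure time. The median of replicate 1 of 50 nM for 24 h on day 15 lies at 6.85, below the other day 15 arrays at 8.14 to 9.39.

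The dose difference of the muscle genes rested on this array. Their median difference was 0.78, with 6 of 17 genes at an unadjusted p under 0.05, all higher with 100 nM, where 1.68% of all genes were. It was 2.49 on slide 1, -0.14 on slide 2 and -0.03 on slide 3. Without 50 nM replicate 1 the median was 0.09 and 0 of 17 genes had a limma p under 0.05, adjusted or not. ACTA1, skeletal muscle alpha-actin, was at 12.53, 11.92 and 12.41 with 100 nM and at 8.72, 11.55 and 11.88 with 50 nM. The groups did not overlap, and the difference of 1.57 (SE 0.53) had an adjusted p of 0.42. Without 50 nM replicate 1 it was 0.66 (SE 0.40, adjusted p = 0.58). PPP1R27, a protein phosphatase 1 regulatory subunit, was at 6.85, 6.38 and 6.43 against 5.16, 6.30 and 6.50, a difference of 0.56 that came to 0.15 without that array.

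The second array that stood apart was 100 nM replicate 3. The SD of its residuals was 0.29, against 0.12 to 0.19 on the other 23 arrays. The median signal of its negative controls was 56, and that of the other arrays lay between 21 and 43. On the 6 arrays compared, 52.8% to 70.2% of spots were well above background. The differences on slide 3 had an SD of 0.47 over all genes, against 0.27 on slide 1 and 0.22 on slide 2.

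At an adjusted p below 0.05 with more than a 1.5-fold difference, limma called 13 genes (0.0904% of those tested), all lower with 100 nM. They were COL9A3, KLHL35, OLIG1, OLIG2, TSPEAR-AS2, KCNH6, KCNQ1, BDKRB2, RTP4, ECM2, BMPER, ESPN and INTS6L. In the direction of higher expression with 100 nM the count was 0, with 241 genes at an unadjusted p under 0.05. Single arrays moved this number of 13 calls. It was 33, 19 and 4 without replicates 1, 2 and 3 of 100 nM, and 0, 1 and 7 without replicates 1, 2 and 3 of 50 nM. Each of the 13 was lower with 100 nM on all 3 slides, so that leaving out 1 array could hardly turn a sign, and none turned. Without any correction for the slide, with the 12 arrays of day 15 only, and with the 6 arrays compared only, the count was 0 in each, with 424, 954 and 650 genes at an unadjusted p under 0.05. The signs again held for all 13, but these fits take the difference from the same 6 arrays, so that kept signs are no support for stability.

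**Figure D2:**
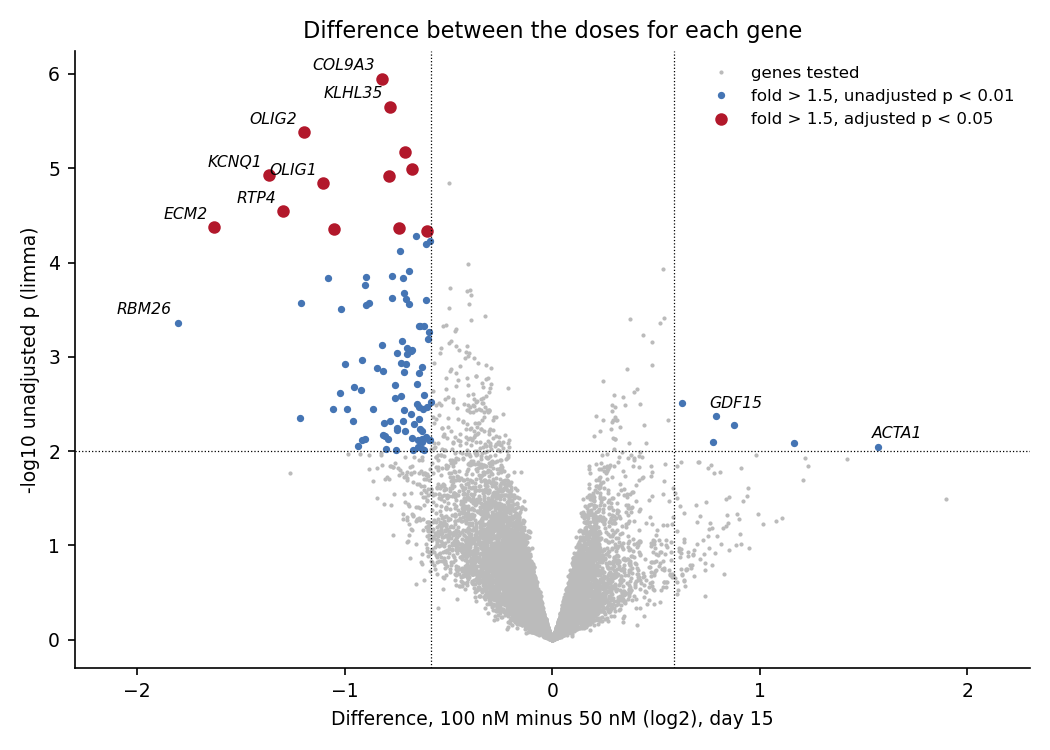
Difference between 100 nM and 50 nM on day 15 (log2, x axis) against -log10 of limma's unadjusted p (y axis) for each of 14377 genes. The dotted lines mark a 1.5-fold difference and the unadjusted threshold of 0.01. The 13 genes past the adjusted threshold (red) all lie on the side of lower expression with 100 nM, as do 103 of the 109 genes past the unadjusted threshold (red and blue).

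Among the called genes were both OLIG genes, basic helix-loop-helix transcription factors of motor neuron progenitors and the oligodendrocyte lineage whose genes both lie on chromosome 21. OLIG1 was at 6.80, 7.28 and 7.12 with 100 nM and at 8.27, 8.33 and 7.92 with 50 nM, groups that did not overlap. The difference was -1.10 (SE 0.18, limma adjusted p = 0.023), a 2.15-fold lower level, and DMSO arrays had 6.93, 7.44 and 7.92. OLIG2 was at 4.75, 5.21 and 4.20 with 100 nM, well above background on 2 of 3 arrays, and at 5.91, 6.06 and 5.78 with 50 nM. It differed by -1.20 (SE 0.18, adjusted p = 0.020). DMSO arrays had 4.94, 5.58 and 5.62. For both genes the DMSO arrays overlapped those of 100 nM, and 1 DMSO array of OLIG1 was level with the lowest 50 nM array. OLIG1 also passed without slide 3 and in 7 of 14 processing alternatives, and OLIG2 without slide 3 and in 6.

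The OLIG genes belong to a list of 15 glial markers, of which 7 were tested. Defining markers of astrocytes and the oligodendrocyte lineage, among them GFAP, S100B, ALDH1L1, SLC1A3, GJA1, PDGFRA and SOX10, were not well above background on all 3 arrays of either dose. The list had a median difference of -0.54, with 3 of 7 genes at an unadjusted p under 0.05 and lower, where 6.5% of all genes were. Besides the OLIG genes this was SLC1A2, an astrocytic glutamate transporter. Only 4 of the 7 were measured above background on each of the 6 arrays, and OLIG2 and SLC1A2 passed the filter only through 50 nM, where they were higher, so that the count is no support for a shift of the list. Over those 4 genes the median was -0.25 with 1 lower, and with no filter on dim probes it was -0.24 with 2 lower. The median was -0.11 without 100 nM replicate 3 and -0.19 when arrays were aligned at the 75th percentile. The summed signal of the list, as log2, was 9.50 to 9.89 with 100 nM, 9.73 to 10.18 with 50 nM and 9.52 to 9.96 with DMSO, so that the groups overlapped.

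COL9A3 and KLHL35 had the smallest p values. COL9A3, a chain of collagen IX, was at 11.27, 10.85 and 11.33 with 100 nM and at 12.15, 11.70 and 12.06 with 50 nM. The difference was -0.82 (SE 0.11, limma adjusted p = 0.016), or 1.77-fold, and was -0.88, -0.85 and -0.73 on the 3 slides. The DMSO arrays, at 11.70, 11.69 and 11.80, lay above all 100 nM arrays and overlapped those of 50 nM. KLHL35, a kelch-like protein, was at 9.44, 9.03 and 9.62 with 100 nM and at 9.99, 10.16 and 10.30 with 50 nM. Its difference was -0.78 (SE 0.11, adjusted p = 0.016), and its DMSO arrays, at 9.77, 9.50 and 9.75, overlapped those of 100 nM and lay below all 50 nM arrays. Both genes had no overlap between the doses and were called in 10 of 14 processing alternatives, the most of the 13.

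Among membrane proteins, KCNH6 and KCNQ1, voltage-gated potassium channels, and BDKRB2, the bradykinin B2 receptor, were lower with 100 nM. KCNH6 was at 6.50, 6.61 and 6.49 against 7.35, 7.32 and 6.97 with 50 nM, a difference of -0.68 (SE 0.11, limma adjusted p = 0.023). KCNQ1 was well above background on 1 of 3 arrays with 100 nM and on all 3 with 50 nM, at 4.48, 4.42 and 3.51 against 5.10, 5.79 and 5.61 (difference -1.37, SE 0.22, adjusted p = 0.023). Like OLIG2 and ECM2, KCNQ1 entered the test only through the 50 nM arrays, and its size with 100 nM rests on 2 arrays that were not well above background. BDKRB2 was at 6.11, 6.30 and 5.91 against 7.15, 6.84 and 6.68, a difference of -0.78 (SE 0.13, adjusted p = 0.023). None of these had arrays that overlapped between the doses. TRPV2, a cation channel, also had an adjusted p of 0.023, with a difference of -0.50 that did not reach the fold threshold.

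RTP4, a chaperone of membrane receptors that interferon induces, was at 6.55, 6.16 and 6.59 with 100 nM, at 7.81, 7.63 and 7.75 with 50 nM and at 6.91, 7.17 and 7.43 with DMSO. The 3 groups did not overlap, and the doses differed by -1.30 (SE 0.23, limma adjusted p = 0.041), or 2.46-fold. ECM2, an extracellular matrix protein, was well above background on 0 of 3 arrays with 100 nM and on all 3 with 50 nM. As processed here, it was at least 2.95-fold lower with 100 nM (adjusted p = 0.048). This counts each dim array at no less than the lowest signal that was well above background there. The fold is no bound for other processing, since the log2 difference of ECM2 ran from -2.35 to -0.56 over the processing alternatives. Without 100 nM replicate 3 this difference was -1.33 (adjusted p = 0.29). ESPN, an actin-bundling protein, was at 7.42, 6.98 and 5.80 against 7.78, 7.97 and 7.59, with its largest gap on slide 3 (difference -1.05, SE 0.19, adjusted p = 0.048). The remaining called genes were BMPER, which binds bone morphogenetic proteins, INTS6L, a relative of an Integrator subunit, and the noncoding RNA TSPEAR-AS2, with differences of -0.74, -0.60 and -0.71. In this order, they were called in 2, 1 and 5 of 14 processing alternatives. Aligned at the 75th percentile, they differed by -0.44, -0.27 and -0.43. BMPER and INTS6L were the 2 called genes with overlapping doses, and 11 of 13 did not overlap. Over all genes 3.78% did not, but the 13 were chosen for a gap on these same arrays, so that nothing can be read from this count. TSPEAR, after which this antisense RNA is named, differed by -1.21 (adjusted p = 0.10) and is named here after its value was seen.

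**Figure D3:**
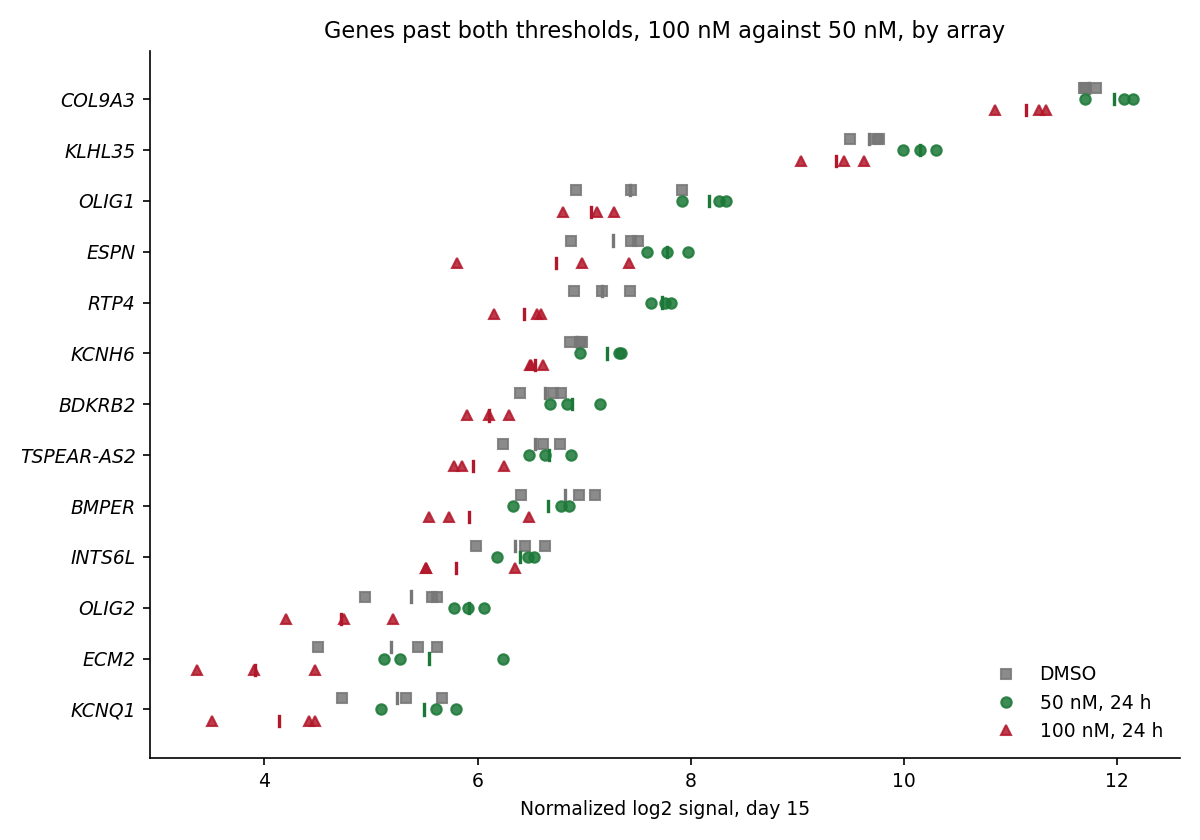
Normalized log2 signal on each day 15 array (x axis) of the 13 genes lower with 100 nM than with 50 nM at an adjusted p below 0.05 with more than a 1.5-fold difference. Triangles are 100 nM, circles 50 nM and squares DMSO, with the mean of each group as a vertical bar. In 12 of the 13 genes the DMSO mean lies between those of the doses.

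For 12 of the 13 genes the mean of the DMSO arrays lay between the doses, where it did so for 32.4% of all genes. Genes picked for a wide gap between the doses leave more room for a level in between, and the comparisons with DMSO share the arrays of the doses. Against DMSO the median difference of the 13 genes was -0.58 with 100 nM and 0.28 with 50 nM. At an unadjusted p under 0.05, 12 of the 13 were lower than DMSO with 100 nM and 7 differed from DMSO with 50 nM. The 13 were chosen for a gap on these same dose arrays, so that neither count is support for a shift from DMSO. The exception to the order was BMPER, at 5.92 with 100 nM, 6.66 with 50 nM and 6.82 with DMSO (means). Replicate 1 of the DMSO group rests on its label alone, since its scan name does not name DMSO.

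The promoters of the called genes were read where RefSeq start sites were at hand, for 8 of the 13, and those of the muscle genes for 8 of 17. Printed here are the 250 bases before the start for a pair of each, 5′ to 3′ on the strand of the gene, as examples of called genes and of muscle genes, with motifs that occur in them. Capitals mark matches on either strand to the TATA box (TATAAA), an E-box (CAGCTG), a GC box (GGGCGG) or the core of the interferon-stimulated response element (ISRE), and no matches overlap here. They are RefSeq sequences and were not measured in this experiment.
RTP4, GRCh38.p14 chr3:187368135-187368384, plus strand: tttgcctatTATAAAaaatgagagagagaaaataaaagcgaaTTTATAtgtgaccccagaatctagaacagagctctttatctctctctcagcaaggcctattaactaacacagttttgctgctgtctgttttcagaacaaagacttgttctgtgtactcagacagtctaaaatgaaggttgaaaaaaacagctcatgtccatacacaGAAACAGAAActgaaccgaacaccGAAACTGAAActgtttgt
BDKRB2, GRCh38.p14 chr14:96204589-96204838, plus strand: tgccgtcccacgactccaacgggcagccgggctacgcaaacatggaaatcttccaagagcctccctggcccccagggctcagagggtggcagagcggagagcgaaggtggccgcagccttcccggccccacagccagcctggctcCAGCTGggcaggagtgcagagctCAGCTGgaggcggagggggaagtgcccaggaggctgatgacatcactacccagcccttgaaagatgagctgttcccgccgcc
ACTA1, GRCh38.p14 chr1:229434095-229434344, minus strand: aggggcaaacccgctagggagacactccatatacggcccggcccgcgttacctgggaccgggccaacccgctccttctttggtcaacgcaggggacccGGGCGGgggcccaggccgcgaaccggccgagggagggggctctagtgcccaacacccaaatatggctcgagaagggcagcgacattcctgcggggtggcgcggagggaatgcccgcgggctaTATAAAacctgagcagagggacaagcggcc
CKM, GRCh38.p14 chr19:45322876-45323125, minus strand: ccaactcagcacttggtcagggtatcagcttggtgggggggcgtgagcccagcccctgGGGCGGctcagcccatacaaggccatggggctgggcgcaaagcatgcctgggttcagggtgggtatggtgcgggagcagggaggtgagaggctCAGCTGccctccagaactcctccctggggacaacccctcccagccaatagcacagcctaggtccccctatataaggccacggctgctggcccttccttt
Among 27305 promoters of this length, 11.1% hold TATAAA at any place, 13.8% this E-box, 42.3% the GC box and 3.07% the ISRE core. RTP4 held the ISRE core at 2 places and was the only one of the 8 called genes with it. BDKRB2 held the E-box at 2 places. The TATA box was found in 5 of the 8 muscle promoters and in 1 of the 8 of called genes. A match is a stretch of letters and does not show that a factor binds there.

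At an unadjusted p below 0.01 with more than a 1.5-fold difference, 109 genes (0.758%) differed between the doses, 6 higher and 103 lower with 100 nM. The count was 52 without 100 nM replicate 3, and 345 and 334 without its replicates 1 and 2. The median difference of the 103 lower genes was -0.55 on slide 1, -0.54 on slide 2 and -1.16 on slide 3, and 82 of them had their largest difference on slide 3. Of these genes 81 were well above background on all 3 arrays of 100 nM. Scaling moved the direction. When arrays were aligned at the 75th percentile, 29 of 50 genes were higher with 100 nM, and with the processed signal of the scanner software 32 of 77. At an unadjusted p under 0.05 and any fold, 1176 genes (8.18%) passed, 241 higher and 935 lower, whereas the scaling gave 424 of 891 and the processed signal 375 of 962 on the higher side. The count of 1176 came to 673 without 100 nM replicate 3 and to 1912 and 1866 without its replicates 1 and 2.

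Among the genes with the largest differences at an unadjusted p under 0.01 and the same sign on all slides, few were even across arrays. RBM26, an RNA-binding protein, was at 7.94, 6.01 and 4.93 with 100 nM and at 8.17, 8.13 and 7.99 with 50 nM (difference -1.80, SE 0.41, limma adjusted p = 0.13). The 100 nM arrays were spread over 3 log2 units, whereas those of 50 nM were close to each other. CDC25A, a phosphatase that drives entry into S phase, and KCNIP4, a potassium channel-interacting protein, differed by -0.99 and -1.02, each with its largest gap on slide 3, and by -0.41 and -0.58 without 100 nM replicate 3. RBM26 then differed by -1.19. FKBP10, a collagen chaperone of the endoplasmic reticulum, differed by -1.22 with overlapping doses. LILRB3, an inhibitory leukocyte receptor, was at 5.83, 5.50 and 5.12 against 6.65, 6.36 and 6.44 without overlap (limma adjusted p = 0.21). None of these passed an adjusted p under 0.05.

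On the side of higher expression with 100 nM, GDF15, a stress-induced cytokine, was at 9.46, 8.31 and 9.25 against 7.79, 8.21 and 8.67 with 50 nM. The doses overlapped, with a difference of 0.79 (SE 0.24, limma adjusted p = 0.33) that was 1.68, 0.10 and 0.58 on the 3 slides. PMAIP1, a pro-apoptotic p53 target, was at 7.39, 7.55 and 7.85 against 6.93, 7.19 and 6.78 without overlap (difference 0.63, SE 0.18, adjusted p = 0.31). AKR1C3, an aldo-keto reductase, was at 9.53, 9.54 and 9.68 against 8.82, 9.17 and 9.15, again without overlap (difference 0.54, SE 0.12, adjusted p = 0.13). The long noncoding RNA MIMT1, the transcription regulator LMO2, the ubiquitin ligase MYLIP and ARPP21, a cAMP-regulated phosphoprotein, differed by 0.53, 0.52, 0.48 and 0.56, with adjusted p of 0.083 to 0.34. MIMT1 had the smallest of these. Without 50 nM replicate 1, GDF15 differed by 0.48 and ARPP21 by 0.31, and MIMT1, LMO2 and MYLIP by 0.62, 0.43 and 0.38.

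The targets and stress pathways of rotenone had medians close to that of all genes. Complex I subunits were all measured, 37 of 37, with a median difference of 0.03 and 0 at a limma p under 0.05, adjusted or not. For 36 of them the interval lay within a 1.5-fold change. NDUFB6 had the smallest p (difference 0.12, SE 0.07, adjusted p = 0.71). Of 38 subunits of complexes II to V the median was 0.01, with 1 higher at an unadjusted p under 0.05. This was COX6C, at 14.05, as the mean with 100 nM, and 13.84 with 50 nM. Mitochondrial biogenesis and dynamics genes had a median of 0.02 with 0 of 20 at that threshold, and MFN1, a mitofusin, came closest with -0.20 (SE 0.13). Glycolysis and lactate genes had a median of -0.03, and 1 of 24 was lower, SLC16A3, which exports lactate, at 11.51, 10.65 and 11.53 against 12.21, 11.20 and 12.20. Its groups overlapped, though the difference of -0.64 (SE 0.17, adjusted p = 0.22) was -0.70, -0.55 and -0.66 within the slides.

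Of 33 ATF4 targets, which carry the integrated stress response, 1 had an unadjusted p under 0.05, GDF15, with a list median of -0.01. ATF4 itself differed by 0.11 (SE 0.09). NRF2 targets, antioxidant genes, had a median of 0.00, with 1 of 18 higher and 1 lower. The higher gene was PRDX1, a peroxiredoxin, with a difference of 0.29 (SE 0.09, adjusted p = 0.31). Heat shock genes had a median of 0.00 with 0 of 18 past that threshold. HSPB8, a small heat shock protein, came closest, with a difference of 0.67 (SE 0.45) that was -0.02 without 100 nM replicate 3. Of 24 p53 targets and apoptosis genes 1 was higher, PMAIP1, and 3 were lower, with a median of -0.10. Over all genes 1.68% were higher and 6.5% lower at that threshold. Cholesterol synthesis genes had a median of 0.07 with 0 of 23 past the threshold, and STARD4, a sterol carrier, came closest with 0.26 (SE 0.13). None of these lists had a gene at an adjusted p under 0.05.

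Among genes of neuronal function, neuropeptide precursors had 4 of 16 genes at an unadjusted p under 0.05, all lower with 100 nM, where 6.5% of all genes were, with a median of -0.08. Without 100 nM replicate 3, 2 of the 16 were lower. GAL, the galanin precursor, was at 8.01, 7.63 and 7.24 against 8.61, 8.39 and 8.19 without overlap (difference -0.77, SE 0.17, limma adjusted p = 0.10). CCK, cholecystokinin, differed by -0.38 (SE 0.26) with overlapping doses, and by -0.04 without 100 nM replicate 3. Of 28 synaptic vesicle and release genes 3 were lower and 1 was higher, with a median of -0.07. SYT2, a synaptotagmin, differed by -0.31 (SE 0.10) as the mean of 4 probes that disagreed in sign, at -0.15, -0.86, -0.38 and 0.16. Of 25 voltage-gated channel genes 1 was lower, KCNA2, by -0.34 (SE 0.12), with a list median of -0.03. KCNQ1 and KCNH6 were not on this list. Of 20 glutamate, GABA and glycine receptor genes 3 were lower, with a median of -0.10, led by GRM4, a metabotropic glutamate receptor, with -0.49 (SE 0.12, adjusted p = 0.17). Of 29 axon guidance genes 2 were lower, with a median of -0.04. PLXNA4, a semaphorin co-receptor, differed by -0.35 (SE 0.11). Immediate early genes had 2 of 15 higher, where 1.68% of all genes were, and 2 lower, with a median of 0.01. ARC, a regulator of synaptic strength, differed by -0.64 (SE 0.20, adjusted p = 0.37).

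Extracellular matrix genes had 6 of 25 members at an unadjusted p under 0.05, all lower with 100 nM, where 6.5% of all genes were, and a median difference of -0.12. Over the 22 members measured above background on each of the 6 arrays, 4 were lower, with a median of -0.09 and 0 past limma's adjusted threshold. ECM2 was the only one past the adjusted threshold. EGFL6, a secreted matrix-binding protein, was well above background on 2 of 3 arrays with 100 nM, at 4.81, 5.08 and 4.20 against 5.91, 5.86 and 5.57 (difference -1.08, SE 0.22, limma adjusted p = 0.083). Collagens and a laminin made up the rest, COL4A2, COL5A1, COL6A1 and LAMA1, named after their values were seen, with differences of -0.37, -0.48, -0.30 and -0.75. TNC, tenascin C, was at 5.82, 6.44 and 4.70 against 5.82, 6.66 and 6.17, overlapping doses with a difference of -0.56 (SE 0.30) that was -0.06 without 100 nM replicate 3. Without 100 nM replicate 3, 3 of 25 were lower and 1 was higher, with a median of -0.05. Collagen IX was not on this list.

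SRF targets and actin genes had 3 of 21 higher and 1 lower at an unadjusted p under 0.05, where 1.68% and 6.5% of all genes were. Their median was 0.02. ACTA1, also on the muscle list, had the smallest p, and its difference of 1.57 came to 0.66 without 50 nM replicate 1. Cell cycle genes had a median of -0.09 with 0 of 22 past an unadjusted p of 0.05, and AURKA, a mitotic kinase, came closest with -0.62 (SE 0.30), or -0.15 without 100 nM replicate 3, and was well above background on 2 of 3 arrays with 100 nM. Neural progenitor genes had a median of -0.06 with 0 of 6, among them VIM with -0.15 (SE 0.12). Of the microglia and blood cell markers 4 of 12 were tested, with a median of -0.06, which was 0.29 with the 75th percentile, and 1 lower, TMEM119. Of 12 fibroblast and endothelial markers 7 were tested, with a median of 0.03 and 2 lower, where 6.5% of all genes were. Neither size nor sign of this median was stable, at 0.43 with the 75th percentile, 0.55 with the processed signal, 0.27 without 100 nM replicate 3 and -0.41 over the 3 genes well above background on all 6 arrays. CLDN5, an endothelial tight junction protein, differed by -0.41 (SE 0.12, adjusted p = 0.31). The summed signal of this list, as log2, was 9.33 to 9.69 with 100 nM, 9.74 to 9.94 with 50 nM and 9.64 to 9.74 with DMSO, so that the doses did not overlap. CLDN5, at means of 8.77 with 100 nM and 9.17 with 50 nM, made up a large part of this sum. The sum thus says little about the rest of the list, and its part in the other differences was not tested. COL1A1, COL3A1, PECAM1 and KDR, which define these cells, were not well above background on all 3 arrays of either dose.

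**Figure D4:**
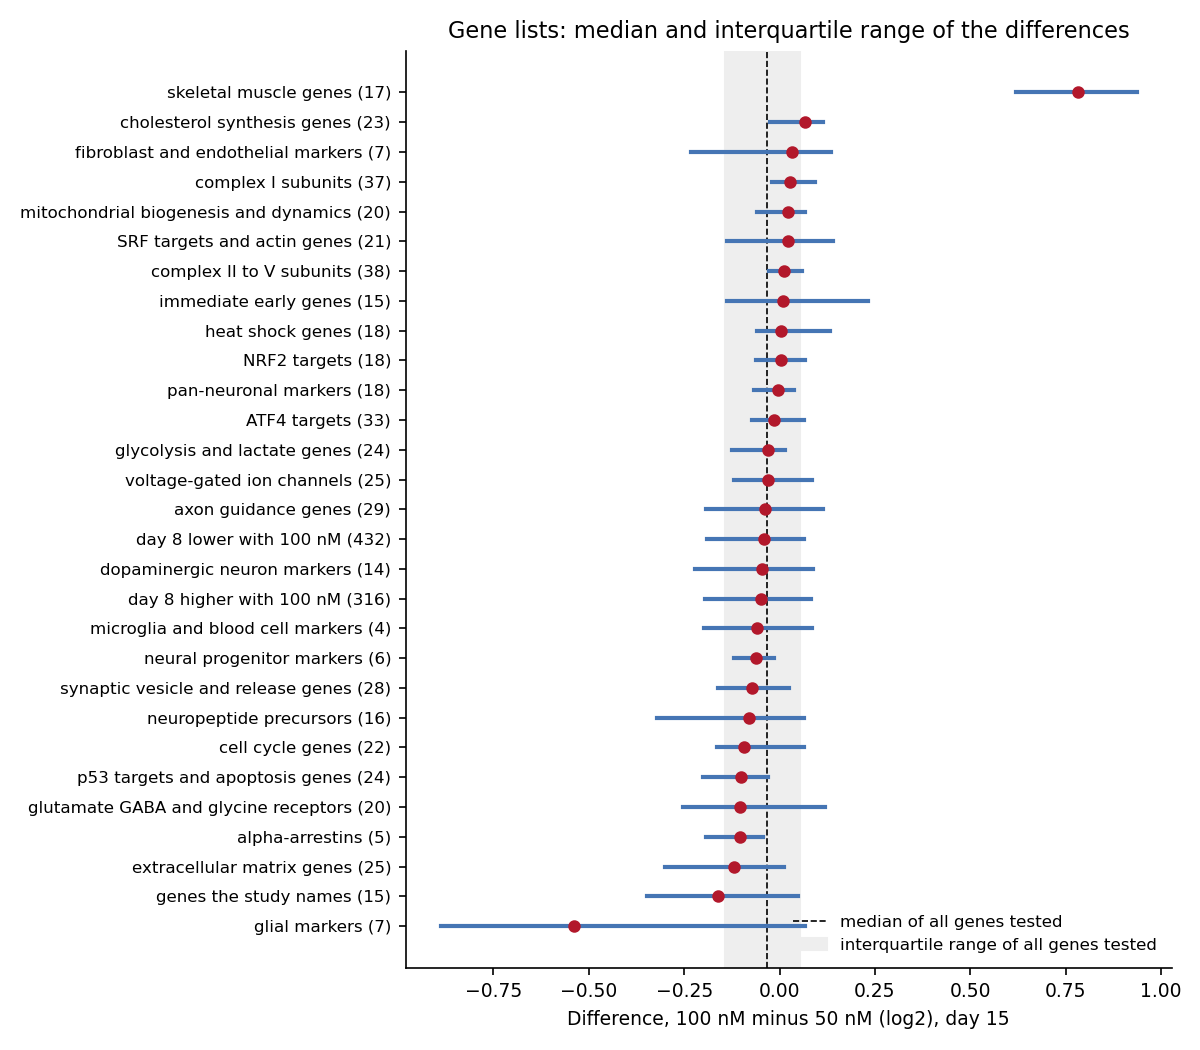
Median (red point) and interquartile range (blue line) of the log2 difference between 100 nM and 50 nM on day 15 for each gene list, with the number of genes tested in parentheses. Most medians lie near that of all genes (-0.03, dashed line, with their interquartile range as a gray band), whereas the 17 skeletal muscle genes lie at 0.78 and the 7 glial markers at -0.54.

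The genes that had responded to 100 nM on day 8, right after exposure, were read in the dose comparison of day 15. They were chosen on the day 8 contrast, in a fit whose normalization, slide terms and spread also drew on the day 15 arrays. On day 8, 335 genes were higher (2.28% of 14663 tested) and 466 lower (3.18%) than with DMSO, at an adjusted p below 0.05 with more than a 1.5-fold difference. Of these 316 and 432 were tested on day 15, with median differences between the doses of -0.05 and -0.04, against -0.03 over all genes. At an unadjusted p under 0.05, 14 of the 316 were higher and 44 lower with 100 nM, and 17 of the 432 were higher and 50 lower. These are 4.43% and 13.9% of the first list and 3.94% and 11.6% of the second, against 1.68% and 6.5% of all genes. Aligned at the 75th percentile, the lower counts were 27 (8.54%) and 28 (6.48%), where 3.25% of all genes were lower. Without 100 nM replicate 3 they were 23 (7.28%) and 32 (7.41%), where 3.28% of all genes were.

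Among the genes with large differences on day 8, TXNIP, an alpha-arrestin that restrains glucose uptake, was at 12.08, 12.10 and 11.92 with 100 nM and at 12.41, 12.11 and 11.88 with 50 nM, overlapping groups with a difference of -0.10 (SE 0.13, interval -0.39 to 0.18). ARRDC4, its closest relative, differed by 0.02 (SE 0.14), and the 5 alpha-arrestins tested had a median of -0.10 with 0 past an unadjusted p of 0.05. ARRDC2 had the smallest p among them, with -0.31 (SE 0.15). FABP3, a fatty acid binding protein of muscle and neurons, was at 7.22, 7.45 and 7.54 against 6.37, 7.39 and 7.29, a difference of 0.38 (SE 0.18) that was 0.12 without 50 nM replicate 1. PRSS56, a serine protease, differed by 0.25 (SE 0.20). BDKRB2, ECM2 and INTS6L were the 3 of the 13 called genes that had also responded on day 8, and BDKRB2 was higher than DMSO then, with a difference of 2.07, while ECM2 and INTS6L were lower.

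Of the genes the study names, 15 were tested, with a median of -0.16. At an unadjusted p under 0.05, 3 were higher and 3 lower, where 1.68% and 6.5% of all genes were. The 3 higher genes were ACTA1, GDF15 and PPP1R27. Without 50 nM replicate 1 they differed by 0.66, 0.48 and 0.15, with unadjusted limma p of 0.11, 0.0503 and 0.42. This list was chosen on these arrays and is no independent evidence of a direction. LCP1, an actin-bundling protein of leukocytes, was at 6.99, 7.18 and 6.75 with 100 nM and at 7.19, 7.32 and 7.29 with 50 nM, without overlap (difference -0.29, SE 0.13, limma adjusted p = 0.60). The DMSO arrays were at 7.68, 7.94 and 7.87, above those of both doses. CD200, a neuronal ligand that restrains microglia, differed by -0.81 (SE 0.21, adjusted p = 0.22) with overlapping doses, and by -0.42 without 100 nM replicate 3. FRMPD2, a PDZ scaffold protein, differed by -0.64 (SE 0.15, adjusted p = 0.13) and was well above background on 2 of 3 arrays with 100 nM. GRXCR1, a glutaredoxin-like protein, differed by -0.32 (SE 0.20) and by -0.03 without 50 nM replicate 1, SLC6A3 by -0.28 (SE 0.27), CENPU, a centromere protein, by -0.16 (SE 0.16), and TYMS, thymidylate synthase, by -0.16 (SE 0.37). TOP2B, the topoisomerase II of postmitotic cells, was the most even, at a mean of 12.28 with 100 nM and 12.29 with 50 nM.

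Responders of day 8 were picked by the smallest p on day 15 within each direction, so that both directions were bound to appear. The smallest p values were those of BDKRB2 and ECM2, described above, and both genes were lower with 100 nM. At an unadjusted p under 0.05, more responders were lower than higher with 100 nM, as counted above. The same held for all genes, with 935 lower and 241 higher, so that this direction is not particular to responders. Aligned at the 75th percentile, 467 of all genes were lower and 424 higher. Among those higher on day 8, LCN15, a lipocalin, and RAB37, a small GTPase of secretion, differed by -0.49 and -0.88, while SPRY4, an inhibitor of receptor tyrosine kinase signaling, PLEKHB1 and HBQ1, a globin, differed by 0.41, 0.30 and 0.32. Among those lower on day 8, SEL1L3 and AMH, anti-Mullerian hormone, differed by -0.61 and -0.62. FSTL5, LINC01338, CDH18, a cadherin, and EMX2OS differed by 0.44, 0.48, 0.36 and 0.35. Their adjusted p values were between 0.099 and 0.45.

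The dose difference was also set against that of day 8. For 0 genes did it differ between the days at an adjusted p under 0.05 (limma, day by dose term), with 1035 genes at an unadjusted p under 0.05 and 0.18 as the smallest adjusted p. On day 8 the 13 called genes had a median difference of -0.12 between 100 nM and 50 nM, and 9 of the 13 were lower, where 7564 of the 14377 genes were. At an unadjusted p under 0.05, 11 of the 13 differed between the days, where 7.2% of all genes did. This term contains the day 15 difference that chose the 13, so that the count is no support for a difference between the days.

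**Figure D5:**
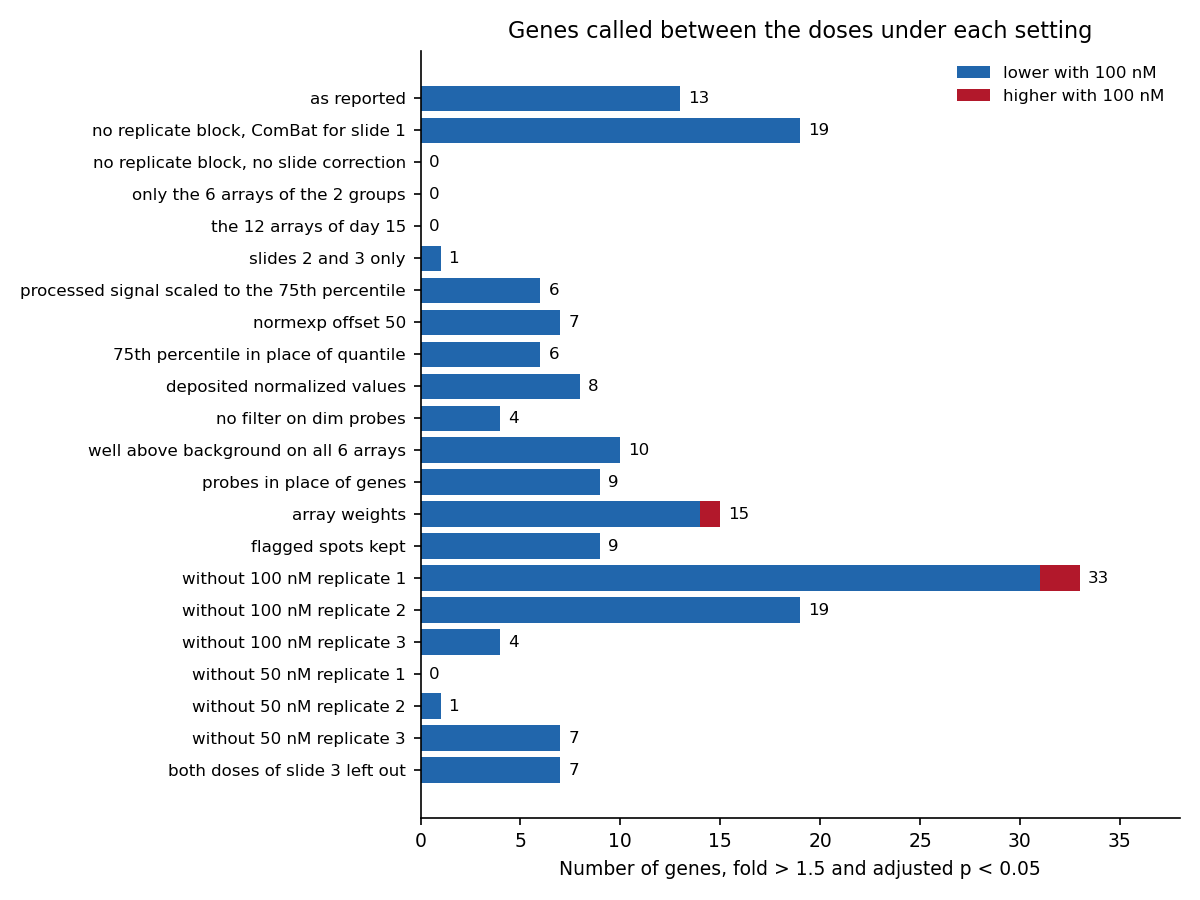
Number of genes past an adjusted p below 0.05 with more than a 1.5-fold difference between 100 nM and 50 nM on day 15 (x axis) under each processing setting and without each array (y axis). The count is 13 as reported and lies between 0 and 33, and blue bars, genes lower with 100 nM, make up nearly all of it.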

How the data were processed

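RNA of 24 samples (8 groups of 3) was hybridised to Agilent 1-color 8x60K human arrays. The deposited scanner files hold spot intensities, which the authors extracted with Feature Extraction (versions 11.5.1.1 and 12.0.0.7 per the file headers). The deposited table holds log2 values that the authors had background-corrected, quantile-normalized and adjusted for the batch, and it was used as an alternative only. Median intensities were corrected with normexp (offset 0), quantile-normalized over 24 arrays, taken as log2 and averaged by probe, without flagged and control spots, and then by gene. Limma 3.58.1 (R 4.3.3) fitted 8 groups with the slide as a block (14 residual degrees of freedom) and p values were adjusted by Benjamini-Hochberg over all 14377 genes. Fold changes are on the log2 scale of these values, and only 3 arrays per group limit their precision.

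Replicate numbers equal slides. Deviations of arrays with the same number correlated at 0.19 or more (median 0.60, 84 pairs), so that the numbers pair the samples. Slide 1 was scanned on another day, and each group had the same place on every slide, which leaves place confounded with group. No pair of arrays held identical values. The fit was tested on simulated data. Besides the called genes, the text names the 8 genes in each direction with the largest difference at an unadjusted p under 0.01, the same sign on all slides and a probe above background on all 6 arrays, up to 3 in each direction with the largest bounded fold (ECM2 alone), the genes the study names with a few fixed ones, the gene with the smallest p in each list, and up to 5 day 8 responders in each direction. Others are said to be named after their values were seen. The comparison, its members and all gene lists were chosen with earlier results of these data known. The array was designed on an older genome build, so gene coordinates are not given. Promoters come from RefSeq (GRCh38.p14). Some genes of the lists are not reported here by name.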

Additional observations from a re-analysis of the deposited data

How the results depend on the processing

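The number of genes past an adjusted p below 0.05 with more than a 1.5-fold difference was 13 with the slide as replicate block. It was 0 with no replicate block and no slide correction, 0 with only the 6 arrays compared, 0 with the 12 arrays of day 15, 1 with slides 2 and 3, 6 with the processed signal, 7 with a normexp offset of 50, 6 with the 75th percentile, 8 with the deposited values and 4 with no filter on dim probes. ComBat in place of the block gave 19, of which 10 were among the 13. Leaving out both doses of slide 3, chosen after seeing the data, gave 7. Leaving out single arrays gave 0 (50 nM replicate 1) to 33 (100 nM replicate 1). The 13 genes remained lower in these fits, counting 12 of 13 with the deposited values, and 10 remained where all 6 arrays had to be above background. Each was lower on all 3 slides, so that kept signs say little.

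The 109 genes at an unadjusted p below 0.01 with that difference came to 61 with no replicate block, 63 with the 6 arrays, 71 with day 15, 167 with slides 2 and 3, 22 with the offset, 50 with the 75th percentile, 180 over probes, 64 with array weights, 61 without slide 3, and 52 to 345 without single arrays. The 1176 genes at an unadjusted p below 0.05 came to 424 with no replicate block, 650 with the 6 arrays, 1913 with slides 2 and 3, 1818 over probes, 547 without slide 3, and 673 to 1912 without single arrays. The cause of these shifts was not tested. Dim genes limit the comparison, since 384 and 517 genes passed the filter through only 100 nM or only 50 nM.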

Other observations

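Among abundant transcripts, SST and CRABP1 had separate doses and are named after their values were seen. SST, the somatostatin precursor, was at 13.59, 13.26 and 13.23 with 100 nM and at 13.96, 14.24 and 13.96 with 50 nM (difference -0.70, limma adjusted p = 0.18). CRABP1, which binds retinoic acid in the cytoplasm, was at 13.70, 13.52 and 13.37 against 14.15, 14.29 and 13.98 (difference -0.61, limma adjusted p = 0.054). Neither overlapped between the doses, and neither passed the adjusted threshold. Over all genes 3.78% did not overlap, and SST and CRABP1 were picked with their separation seen, so that nothing can be read from it. The summed signal of the 16 neuropeptide precursors, as log2, was 14.91 to 15.12 with 100 nM, 15.30 to 15.34 with 50 nM and 15.07 to 15.24 with DMSO. At its level SST weighs heavily in this sum, which is therefore no result apart from SST. The median difference of the list was -0.08.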
